A study of Mus musculus with 4 samples.

Results

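The matrix metalloproteinases (MMPs) were followed as 10 genes in PDGFRα reporter+ and PDGFRα reporter- cells of the mouse periosteum: *Mmp2*, *Mmp3*, *Mmp9*, *Mmp10*, *Mmp11*, *Mmp13*, *Mmp14*, *Mmp16*, *Mmp19* and *Mmp23*. They were chosen by symbol from the 45802 gene symbols listed for the libraries, and all 10 had a value in each of the 4 libraries, as did 14415 genes in all. *Mmp3*, *Mmp9* and *Mmp13* were at least 1 higher on the log2 scale in reporter+ cells at both library numbers. The other 7 members had differences between −0.60 and 0.28 at either number. None of the 10 passed the adjusted test between the populations without the library number as a term, whereas *Mmp3* and *Mmp13* passed with it, but not when that fit was made without a variance trend or without moderation.

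MMPs are zinc-dependent endopeptidases that cut the proteins of the extracellular matrix. Most are secreted as proenzymes, some are anchored in the cell membrane, and they become active when their prodomain is removed, by plasmin, by proprotein convertases or by another MMP. Tissue inhibitors of metalloproteinases (TIMPs) bind and block the active enzymes. In bone and periosteum they are known for clearing collagen and cartilage matrix during growth and fracture repair, and the genes of the secreted enzymes are known to respond to inflammatory cytokines.

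Both populations came from male *Pdgfrα*-mTmG mice, 9 to 10 weeks old, that had 5 daily doses of tamoxifen (150 mg/kg) and were dissected 14 days after the last dose. In these animals the *Pdgfra* promoter drives a tamoxifen-dependent Cre (CreER), which turns off membrane tdTomato in a cell and turns on membrane GFP. Reporter+ cells are those sorted as GFP+ and reporter- cells those sorted as tdTomato+. GFP marks cells in which the promoter was active when tamoxifen was given, and their progeny, whatever their *Pdgfra* level at harvest. Cells digested from the femurs and tibias were grown for 1 passage with 15% serum and bFGF (basic fibroblast growth factor, 10 ng/mL), and sorted as negative for CD31, CD45 and Ter119. Each population pooled 3 to 6 mice according to the sample labels, and the methods of the study give a larger number.

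There were 2 libraries of total RNA in each population, with 1 log2 expression value per gene and library, quantile normalized by the authors. Between 15423 and 15605 genes had a value per library. The linear unit and the sequencing depth are unknown, so that the genes are not ranked by level, and no counting error is given. The libraries carry the numbers 2 and 3 in the headings of the values but 1 and 2 in the sample labels, so that a library is named here by its population and heading number. Whether equal numbers share a preparation is not written. Across genes, the correlation between the populations was 0.984 at number 2 and 0.982 at number 3, and between the numbers it was 0.952 in reporter+ and 0.957 in reporter- cells. These are descriptions over 14415 genes, which are not independent.

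Markers of the cells were compared first. *Pdgfra* itself was at 7.78 and 7.62 in reporter+ libraries 2 and 3 and at 7.87 and 7.44 in the reporter- libraries, and these ranges overlapped. All 10 stromal markers had values in every library, and 8 had a lower mean in reporter+ cells, 6 of them at both numbers, beside 24.8% of all genes. One was higher without overlap (*Ctsk*) and 1 lower (*Ly6a*). Of all genes tested, 7.59% were higher and 8.1% lower in reporter+ cells in this way. *Ptprc*, the gene of CD45, was chosen as a gate gene after earlier results were known, and was at −1.28 and −0.39 in reporter+ and at −2.30 and −1.22 in reporter- libraries. *Pecam1*, the gene of CD31, was at −4.68 and −4.79 in reporter+ and higher, at −1.99 and −1.11, in reporter- libraries.

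Of 15 macrophage markers, 14 had a value in every library, and all 14 had a higher mean in reporter+ cells. The populations did not overlap for 10 of them, beside the 7.59% of all genes that were higher in this way, and the median log2 fold change was 1.01. Added up on the linear scale, whose unit is unknown and which sets the weight of each gene in the sum, the macrophage list reached 250 and 294 in reporter+ libraries 2 and 3 and 99.1 and 188 in reporter- libraries 2 and 3, a ratio of 2.52 at number 2 and of 1.56 at number 3. *Lyz2* alone made up 77.7% to 81.2% of this sum, and without it the ratios were 2.23 and 1.66. The defining genes *Adgre1*, *Csf1r*, *Cd68* and *C1qa* all had values in the 4 libraries, and *Fcgr1* was blank in reporter- library 2. Of 8 osteoclast markers, 7 had a value in every library, all 7 had a higher mean in reporter+ cells and 5 did not overlap (7.59% of all genes higher), *Ctsk* among them, which the stromal list also holds. The osteoclast sums were 24.2 and 27.5 in reporter+ and 19.3 and 17.1 in reporter- libraries, and *Calcr* was blank in reporter- library 3. *Ctsk* made up 78.1% to 91.8% of these sums, and without it they were 3.38 and 6.01 in reporter+ and 2.73 and 1.39 in reporter- libraries. Of 10 neutrophil markers, *S100a9*, *Ltf* and *Ngp* were blank in all libraries and only *Camp* had a value in each. The neutrophil sums were 0.379 and 4.15 in reporter+ and 0.331 and 1.08 in reporter- libraries. They were mostly *Camp* and *S100a8*. *S100a8* was at −4.21 and 1.39 in reporter+ libraries 2 and 3, blank in reporter- library 2 and at −1.14 in reporter- library 3. Of 9 endothelial markers with a value in every library, 4 were lower in reporter+ cells without overlap, beside 8.1% of all genes. Endothelial sums were 4.08 and 3.65 in reporter+ and 5.32 and 6.86 in reporter- libraries. Of 10 hypertrophic chondrocyte and osteoblast markers, 9 had a value in every library, 3 with a higher and 6 with a lower mean in reporter+ cells (median log2 fold change −0.05). *Ibsp* and *Alpl* were higher and none was lower without overlap. Macrophage and osteoclast lists thus moved in the same direction as *Mmp3*, *Mmp9* and *Mmp13*. Their part in these results was not tested. In bulk RNA, fewer cells of a type and less RNA per cell cannot be told apart.

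**Figure D1:**
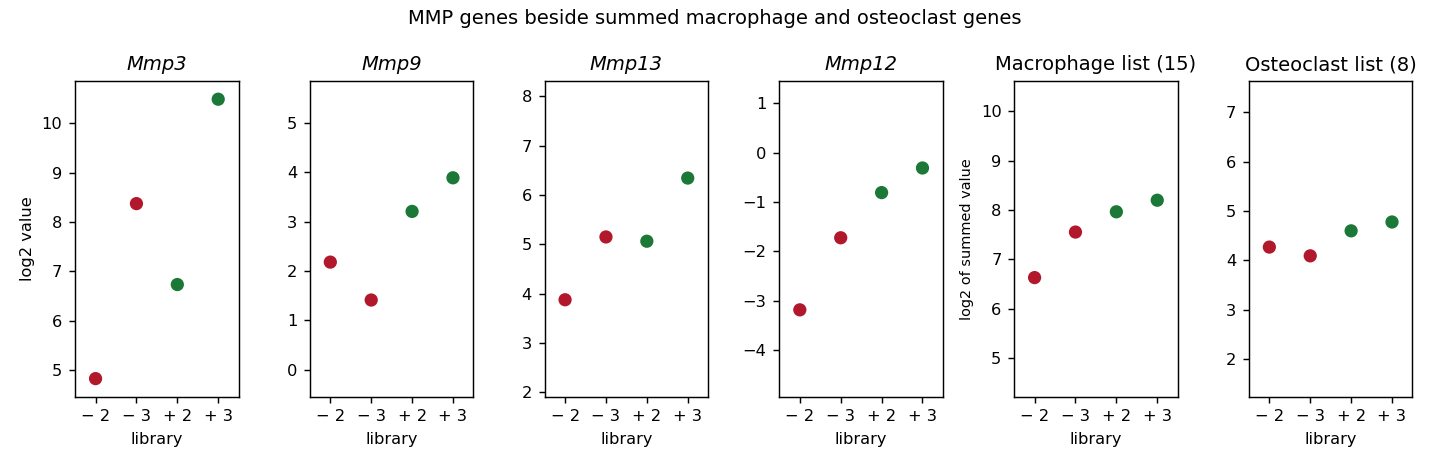
Log2 values of *Mmp3*, *Mmp9*, *Mmp13* and *Mmp12* and the log2 of the summed linear values of 15 macrophage and 8 osteoclast markers, one point per library (+ and − for reporter+ and reporter-, 2 and 3 for the heading number; blanks add nothing to a sum). Both sums were higher in the reporter+ libraries, from 7.96 to 8.20 against 6.63 to 7.55 for macrophage genes and from 4.60 to 4.78 against 4.09 to 4.27 for osteoclast genes, sums of which *Lyz2* and *Ctsk* carried most.

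Among the members with a promoter window, sequences are shown for those whose values moved most between libraries and for 1 that hardly moved. RefSeq windows (GRCm38.p6) were found for 6 of the 10 members, *Mmp3*, *Mmp10*, *Mmp11*, *Mmp13*, *Mmp14* and *Mmp23*, and not for *Mmp2*, *Mmp9*, *Mmp16* and *Mmp19*. Each run is the 250 bases before the RefSeq start on the plus strand, and the capitals mark the AP-1 letters TGAGTCA or their reverse complement TGACTCA, and the TATA box letters TATAAA:
Mmp3 promoter, chr9:7445572-7445821: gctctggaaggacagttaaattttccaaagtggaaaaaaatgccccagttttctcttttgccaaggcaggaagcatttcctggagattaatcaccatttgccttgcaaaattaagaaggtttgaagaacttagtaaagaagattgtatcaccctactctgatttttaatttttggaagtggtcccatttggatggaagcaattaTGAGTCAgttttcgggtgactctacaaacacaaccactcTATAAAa
Mmp10 promoter, chr9:7502092-7502341: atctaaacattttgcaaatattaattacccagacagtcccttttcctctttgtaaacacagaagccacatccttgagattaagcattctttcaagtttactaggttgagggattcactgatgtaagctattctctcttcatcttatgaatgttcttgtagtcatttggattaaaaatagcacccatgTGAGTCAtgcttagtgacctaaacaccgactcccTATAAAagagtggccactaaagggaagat
Mmp13 promoter, chr9:7272264-7272513: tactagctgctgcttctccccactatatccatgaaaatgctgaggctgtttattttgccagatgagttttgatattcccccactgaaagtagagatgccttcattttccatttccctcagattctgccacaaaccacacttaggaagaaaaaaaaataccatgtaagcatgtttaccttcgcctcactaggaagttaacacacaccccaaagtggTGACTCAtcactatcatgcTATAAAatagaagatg
Mmp14 promoter, chr14:54431348-54431597: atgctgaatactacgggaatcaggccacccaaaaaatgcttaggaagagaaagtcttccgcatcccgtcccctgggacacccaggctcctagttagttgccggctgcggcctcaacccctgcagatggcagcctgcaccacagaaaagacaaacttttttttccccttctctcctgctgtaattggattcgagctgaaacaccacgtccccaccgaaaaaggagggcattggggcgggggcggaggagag

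The windows of *Mmp3*, *Mmp10* and *Mmp13* each hold 1 AP-1 and 1 TATA box match. In *Mmp3* the AP-1 letters lie at bases 46 to 40 before the start and the TATA box letters at bases 7 to 2. In *Mmp10* they lie at bases 63 to 57 and 29 to 24, and in *Mmp13* at bases 35 to 29 and 16 to 11. *Mmp13* also holds ACCACA, the reverse complement of the RUNX letters TGTGGT, at bases 118 to 113. For *Mmp10* and *Mmp14* the RefSeq start lies a few bases before the GENCODE gene start. *Mmp14* has neither AP-1 nor TATA box letters and holds the GC box letters GGGCGG at bases 19 to 14 and 13 to 8, and ACCACA at bases 114 to 109. The ETS letters AGGAAG (reverse complement CTTCCT) occur in the windows of *Mmp3*, *Mmp13* and *Mmp14*. Of the motifs searched, *Mmp11* holds GC box letters only, and *Mmp23* has a RUNX match but neither AP-1 nor TATA box letters. On both strands, AP-1 letters occur in 4.46% of the 32851 promoter windows of this length, TATA box letters in 12.4%, both in 0.721%, GC box letters in 32.7%, ETS letters in 29.5% and RUNX letters in 14.0%. The windows of *Mmp1a*, *Mmp1b* and *Mmp7* also hold both AP-1 and TATA box letters, and those genes were blank in 1 or more libraries. A match of letters is a description and not a site that was measured.

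**Figure D2:**
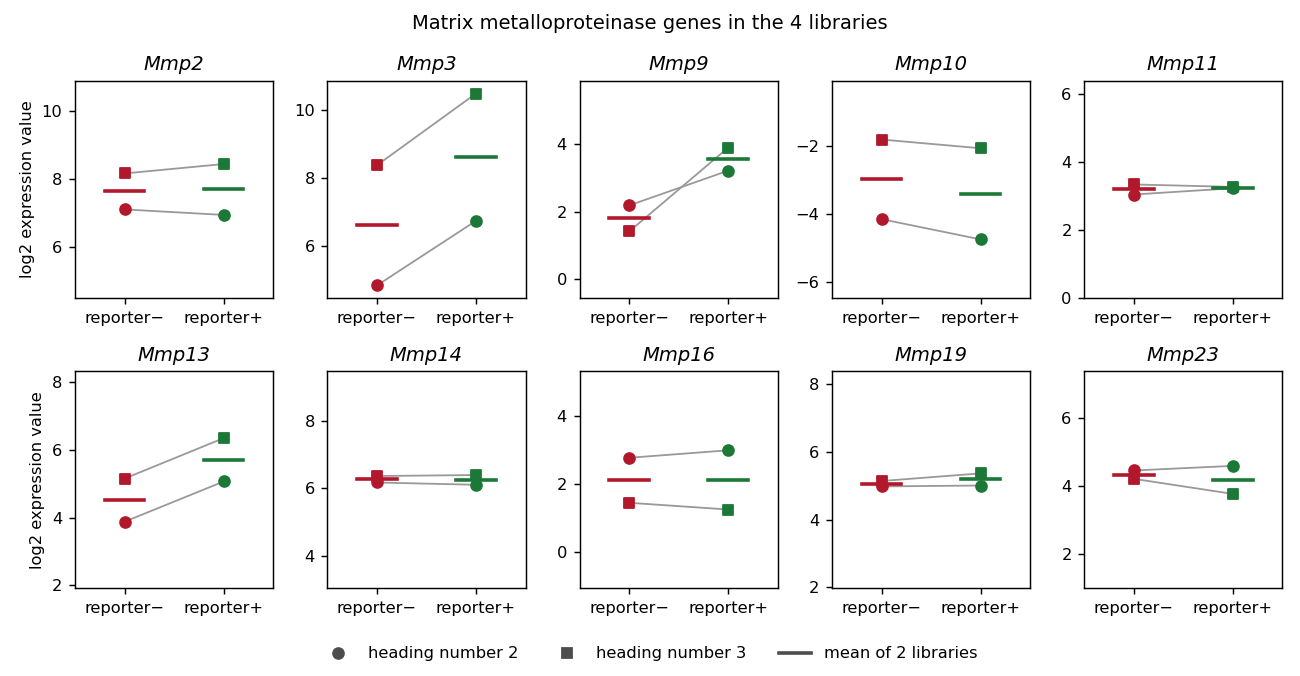
Log2 expression values of the 10 MMP genes in the 4 libraries (red, reporter-; green, reporter+; circle, heading number 2; square, number 3; bar, mean of 2 libraries; every panel spans the same height in log2 units, and lines join equal numbers). *Mmp9* is the only panel without overlap of the populations, and *Mmp3* and *Mmp13* rise along both lines.

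The first comparison was that of reporter+ with reporter- cells. Over the 14415 genes, limma's test without a block found 0% of genes (0 genes) at an adjusted p under 0.05 in either direction (131 genes at an unadjusted p under 0.05, 0.909%). Among the members 1, *Mmp9*, had an unadjusted p under 0.05 and was higher in reporter+ cells, beside 0.451% of all genes higher and 0.458% lower at that p, and every member had an adjusted p of 1. With the heading number added as a replicate block, 2 members passed at an adjusted p under 0.05, *Mmp3* (adjusted p = 0.00341, limma) and *Mmp13* (adjusted p = 0.0101), both higher in reporter+ cells, beside 0.201% of all genes in either direction and 0.153% higher. These calls ended, for all genes, when the block was fitted without a trend or without moderation. The median log2 fold change of the members was 0.06, beside −0.0035 for all genes tested. An exact permutation test (two-sided) of 2 libraries against 2 cannot go below 0.333, so none was run. Nothing says that the libraries of a population came from separate animals or cultures beyond their replicate labels. The p-values therefore cannot be taken to measure spread between animals or cultures. With moderation, the variance of a gene is drawn from its own libraries and from the trend over all genes. With the block, the SE of *Mmp13* was 0.11 with moderation and 0.0036 without it. Without a block, the spread within a population includes the difference between the numbers.

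The stromelysins cut proteoglycans, fibronectin and other noncollagenous matrix, and stromelysin 1, encoded by *Mmp3*, also activates procollagenases. *Mmp3* (chr9:7445822-7455975, plus strand, GENCODE M21 on GRCm38) was at 6.73 and 10.49 in reporter+ libraries 2 and 3 and at 4.82 and 8.37 in reporter- libraries 2 and 3. The reporter+ library was the higher one at each number, but reporter- library 3 lay above reporter+ library 2, so that the populations overlapped. The difference was 1.91 at number 2 and 2.12 at number 3, or 3.75-fold and 4.34-fold. The log2 fold change over all libraries was 2.01 (SE 1.74, 95% confidence interval −2.61 to 6.64, unadjusted p = 0.305, adjusted p = 1, limma), and with the heading number as a block the SE was 0.14. The SD was 2.66 within reporter+ and 2.51 within reporter- libraries (n = 2 each), both larger than the difference between the means.

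*Mmp10*, which encodes stromelysin 2, lies on the same strand as *Mmp3*, farther along the chromosome (chr9:7502352-7510240). It was low, at −4.76 and −2.07 in reporter+ libraries 2 and 3 and at −4.16 and −1.81 in reporter- libraries 2 and 3. Reporter+ cells were the lower ones at each number, with differences of −0.60 and −0.26, and the log2 fold change was −0.43 (SE 1.29). The transcripts of *Mmp3* and *Mmp10* share 140 words of 50 bases, 7.99% of those of *Mmp3* and 8.37% of those of *Mmp10*, and how reads that fit both were counted is not given in the sources used here. The values of *Mmp10* are therefore uncertain. No other member shares a word of 50 bases with any other MMP gene.

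*Mmp11*, which encodes stromelysin 3, an enzyme activated inside the cell by furin, hardly moved. Its values were 3.23 and 3.27 in reporter+ and 3.04 and 3.34 in reporter- libraries 2 and 3. The log2 fold change was 0.06 (SE 0.17, 95% confidence interval −0.40 to 0.51). *Mmp11* (chr10:75923222-75936496, minus strand) overlaps *Chchd10* on the other strand.

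Collagenase 3, encoded by *Mmp13*, opens the triple helix of fibrillar collagens and is made by hypertrophic chondrocytes and osteoblasts. *Mmp13* (chr9:7272514-7283331, plus strand) was at 5.06 and 6.34 in reporter+ libraries 2 and 3 and at 3.88 and 5.15 in reporter- libraries 2 and 3. Reporter+ library 2 lay just below reporter- library 3, so that the populations overlapped by a narrow margin. The differences at the 2 numbers were nearly equal, 1.19 and 1.19 (2.28-fold and 2.29-fold). The log2 fold change was 1.19 (SE 0.62, 95% confidence interval −0.46 to 2.84, unadjusted p = 0.119, adjusted p = 1, limma), and with the heading number as a block the SE was 0.11. *Col10a1*, a marker of hypertrophic chondrocytes, went the other way with overlap, at 0.18 and −1.53 in reporter+ and 0.91 and −0.48 in reporter- libraries. *Ibsp* and *Alpl*, on the same list, were higher in reporter+ cells without overlap, with log2 fold changes of 1.35 and 0.80. Of the hypertrophic chondrocyte and osteoblast list as a whole, 3 of 9 genes had a higher mean in reporter+ cells and 6 a lower one.

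The gelatinases cut denatured collagen and basement membrane collagen. Gelatinase B, encoded by *Mmp9*, is known as a product of osteoclasts, macrophages and neutrophils. *Mmp9* (chr2:164940780-164955850, plus strand) was at 3.21 and 3.89 in reporter+ libraries 2 and 3 and at 2.18 and 1.41 in reporter- libraries 2 and 3. It was the only member whose populations did not overlap, beside 7.59% of all genes that were higher in reporter+ cells without overlap. The difference was 1.03 at number 2 and 2.48 at number 3, or 2.04-fold and 5.57-fold, and the log2 fold change was 1.75 (SE 0.37, 95% confidence interval 0.75 to 2.75, unadjusted p = 0.00719, adjusted p = 1, limma). Between reporter+ and reporter- libraries, the ratio of the summed markers at numbers 2 and 3 was 1.26 and 1.61 for the osteoclast list. It was 2.52 and 1.56 for the macrophage list and 1.15 and 3.86 for the neutrophil list. The neutrophil sums were mostly *Camp* and *S100a8*, with *S100a8* blank in reporter- library 2. The ratios were 1.24 and 4.31 for the osteoclast list without *Ctsk* and 2.23 and 1.66 for the macrophage list without *Lyz2*. Apart from *Ctsk*, *Acp5* had the highest value of the osteoclast list in every library. It was at 1.31 and 1.95 in reporter+ and at 0.87 and −0.52 in reporter- libraries 2 and 3.

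Gelatinase A, encoded by *Mmp2*, is made by most stromal cells. *Mmp2* (chr8:92827291-92853420, plus strand) was at 6.94 and 8.44 in reporter+ libraries 2 and 3 and at 7.10 and 8.16 in reporter- libraries 2 and 3. The values followed the number and not the population, with differences between populations of −0.16 and 0.28. The log2 fold change was 0.06 (SE 0.64, 95% confidence interval −1.65 to 1.77).

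Among the membrane-type MMPs, the *Mmp14* product cuts collagen at the cell surface and, with TIMP2, activates the proenzyme of gelatinase A. *Mmp14* (chr14:54431612-54445364, plus strand) was at 6.11 and 6.40 in reporter+ and at 6.18 and 6.37 in reporter- libraries 2 and 3. All 4 values lay within 0.29 of each other, and the log2 fold change was −0.02 (SE 0.19, 95% confidence interval −0.52 to 0.48). *Mmp16* (chr4:17852893-18119145, plus strand), another membrane-type gene, was at 3.00 and 1.25 in reporter+ and at 2.77 and 1.45 in reporter- libraries 2 and 3. Both number 2 libraries were higher than both number 3 libraries, and the log2 fold change between populations was 0.01 (SE 0.75).

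*Mmp19* encodes a secreted MMP found in many tissues. *Mmp19* (chr10:128790910-128800824, plus strand, overlapped by *Tmem198b* and the antisense gene *Gm47093*) was at 5.01 and 5.36 in reporter+ and at 4.98 and 5.14 in reporter- libraries 2 and 3. It was higher in reporter+ cells at both numbers, by only 0.03 and 0.22, with a log2 fold change of 0.13 (SE 0.19). *Mmp23* (chr4:155650655-155653384, minus strand) encodes a membrane protein without the hemopexin domain of most MMPs. Its values were 4.60 and 3.77 in reporter+ and 4.46 and 4.21 in reporter- libraries 2 and 3, and the differences had opposite signs, 0.14 and −0.45.

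**Figure D3:**
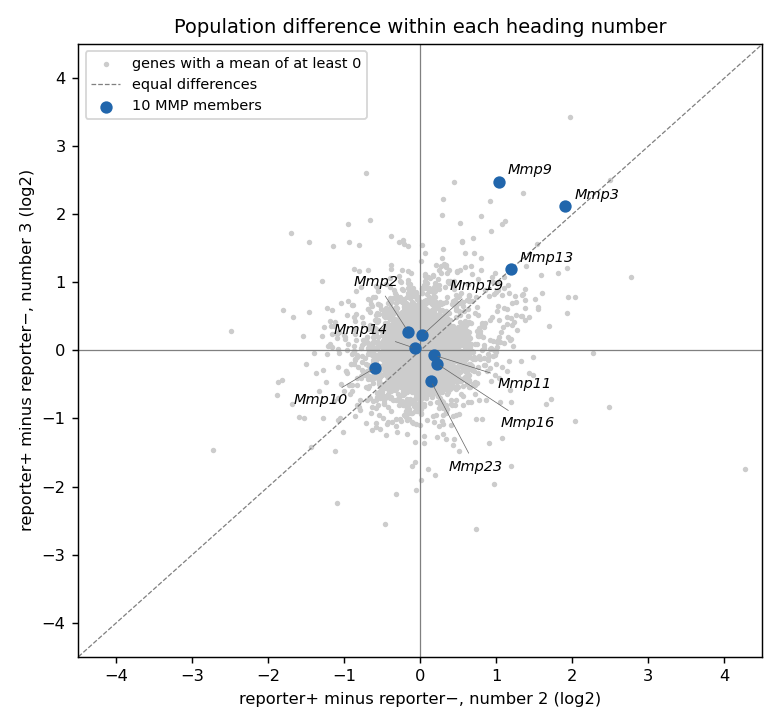
Difference between reporter+ and reporter- cells (log2) at number 2 (x axis) and at number 3 (y axis) for the 10 members (blue) and for 10224 genes with a mean of at least 0 (gray); the dashed line marks equal differences. *Mmp3* (1.91 and 2.12) and *Mmp13* (1.19 and 1.19) lie by the dashed line, *Mmp9* (1.03 and 2.48) lies above it, and the other 7 members lie near the center.

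The direction of the difference was compared between the numbers. Of the 10 members, 4 were higher in reporter+ cells at both numbers (*Mmp3*, *Mmp9*, *Mmp13* and *Mmp19*), beside 22.1% of all genes. One, *Mmp10*, was lower at both, beside 24.8%, and 5 had opposite signs, beside 53.1%. A difference of at least 1 toward reporter+ cells at both numbers was found for 3 members, *Mmp3*, *Mmp9* and *Mmp13*, beside 0.95% of all genes (137 genes), and one of at least 1 the other way for no member, beside 0.673%. Among the 10224 genes whose mean on the log2 scale was 0 or more, which include 9 of the members, 15 genes met this limit (0.147%), and these 3 members were among them. In that set, the order of genes by log2 fold change placed *Mmp3* at 3, *Mmp9* at 6 and *Mmp13* at 25. By the smaller of the 2 differences, *Mmp3* was at 3, *Mmp13* at 8 and *Mmp9* at 15. The members were listed with earlier results of these data known, so that these counts are descriptions.

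The second comparison was that of number 3 with number 2, with the population as a term. The labels do not say what separates the numbers, and preparation, culture and sequencing cannot be told apart. At an adjusted p under 0.05, limma called 6 of the 10 members, beside 21.3% of all genes (3065 of 14415). *Mmp3* rose most, by 3.65 (SE 0.14, adjusted p = 3.27e-06) and 12.6-fold, with differences of 3.76 in reporter+ and 3.55 in reporter- cells. *Mmp10* rose by 2.52 (SE 0.48, adjusted p = 0.00667), *Mmp2* by 1.28 (SE 0.16, adjusted p = 0.000784) and *Mmp13* by 1.28 (SE 0.11, adjusted p = 0.000142). *Mmp16* fell by 1.54 (SE 0.16, adjusted p = 0.000361) and *Mmp23* fell by 0.54 (SE 0.15, adjusted p = 0.0348). When the variance was not allowed to follow the mean level, no gene and thus no member passed, and the smallest adjusted p was 0.0536 (3909 genes at an unadjusted p under 0.05). *Mmp23* missed the threshold under 7 of 8 alternative settings. Without the population as a term, 3 members were called, *Mmp2*, *Mmp10* and *Mmp16*, beside 15.3% of all genes.

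At number 3, 7 members were higher than at number 2 without overlap, beside 36.4% of all genes, and 2 were lower, beside 28.8%. The difference was at least 1 upward in both populations for *Mmp2*, *Mmp3*, *Mmp10* and *Mmp13*, beside 5.35% of all genes, and at least 1 downward for *Mmp16*, beside 4.36%. *Mmp9* was the one member left, higher at number 3 in reporter+ cells (0.68) and lower in reporter- cells (−0.77). For 9 of the 10 members the difference between numbers was larger in absolute size than that between populations, beside 75.7% of all genes, with *Mmp9* as the exception. The median absolute difference of the members was 0.91 between numbers and 0.14 between populations, beside 0.31 and 0.12 for all genes.

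**Figure D4:**
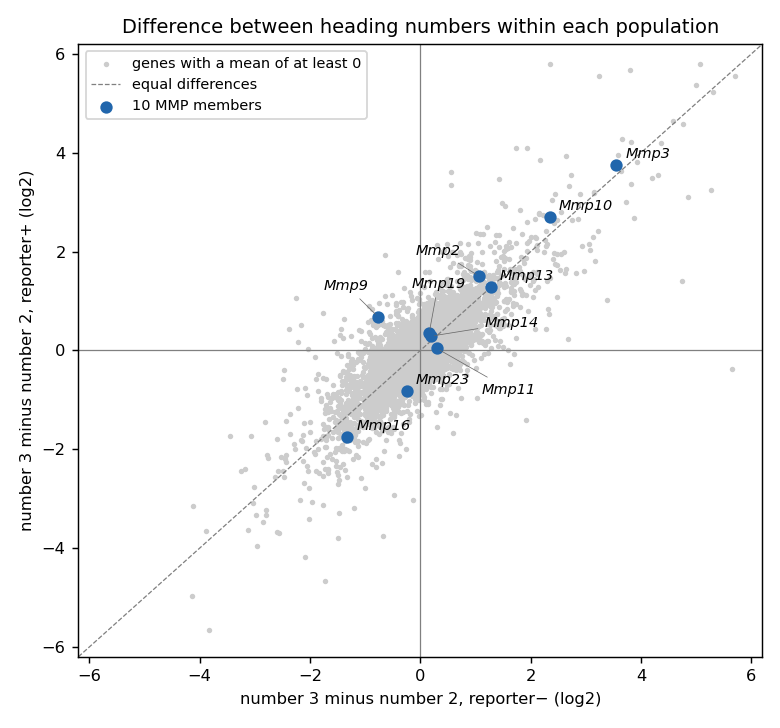
Difference between number 3 and number 2 (log2) in reporter- cells (x axis) and in reporter+ cells (y axis) for the 10 members (blue) and for 10224 genes with a mean of at least 0 (gray); the dashed line marks equal differences. *Mmp3* (3.55 and 3.76), *Mmp10*, *Mmp2* and *Mmp13* lie high and on or near the dashed line, *Mmp16* lies low, and *Mmp9* is the member with opposite signs (−0.77 and 0.68).

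The table also listed 13 other MMP genes, of which 7 had a value in every library, *Mmp1a*, *Mmp1b* and *Mmp25* were blank in some, and *Mmp7*, *Mmp20* and *Mmp21* were blank in all. *Mmp12*, the macrophage elastase gene, was at −0.81 and −0.31 in reporter+ and at −3.19 and −1.73 in reporter- libraries 2 and 3, without overlap. Its differences were 2.38 and 1.41, and its log2 fold change was 1.90 (SE 0.64, unadjusted p = 0.0365, adjusted p = 1, limma). The ratio of the macrophage sums was 2.52 at number 2 and 1.56 at number 3. Whether macrophages had a part in the values of *Mmp12*, *Mmp3*, *Mmp9* or *Mmp13* was not tested. *Mmp12* overlaps *Mmp1b* on the other strand.

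*Mmp8*, the neutrophil collagenase gene, was at −4.51 and −5.16 in reporter+ and −4.69 and −6.73 in reporter- libraries, and 0.87 apart on average (SE 0.95). *Mmp27* was at −5.04 and −3.54 in reporter+ and −6.54 and −3.46 in reporter- libraries. *Mmp24* was at −4.64 and −7.52 in reporter+ and −6.57 and −6.53 in reporter- libraries. Of these low genes, *Mmp8* was higher in reporter+ cells at both numbers, and *Mmp27* and *Mmp24* had opposite signs. *Mmp15* was at −0.75 and −0.06 in reporter+ and −1.02 and 0.45 in reporter- libraries, *Mmp17* at −2.64 and −0.85 and at −1.82 and −1.18. *Mmp28*, at 1.55 and 0.65 in reporter+ and 1.72 and 0.77 in reporter- libraries, was the only one of the 7 with a mean above 0. *Mmp1a* was at −6.41 in reporter+ library 3 and at −6.45 and −6.44 in reporter- libraries, and it shares 165 words of 50 bases with *Mmp1b*. *Mmp1b* (−5.42 and −6.41) and *Mmp25* (−7.29 and −7.36) had values only in the number 3 libraries, reporter+ first.

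A cluster of 427 kb on chromosome 9 (chr9:7272514-7699585) holds 10 MMP genes, *Mmp3*, *Mmp10* and *Mmp13* among them, and 6 of the cluster's MMP genes had a value in every library. In the order of the chromosome, the log2 fold changes of those 6 were 1.19 (*Mmp13*), 1.90 (*Mmp12*), 2.01 (*Mmp3*), −0.43 (*Mmp10*), 0.87 (*Mmp8*) and 0.71 (*Mmp27*). The cluster thus held *Mmp3* and *Mmp13* as well as *Mmp10*, which lies between *Mmp3* and *Mmp8*. *Mmp10* was lower in reporter+ cells at both numbers, beside 24.8% of all genes. Its values were low and uncertain, and the SE of its log2 fold change was 1.29. The 3 other annotated genes within it had no value. The nearest genes with values on either side had smaller positive log2 fold changes than *Mmp3* and *Mmp13*, with 0.19 for *Dync2h1*, 0.30 for *Dcun1d5*, 0.29 for *Tmem123* and 0.27 for *Birc2*, beside a median absolute log2 fold change of 0.12 over all genes. All but *Dcun1d5* were higher in reporter+ cells at both numbers, beside 22.1% of all genes.

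**Figure D5:**
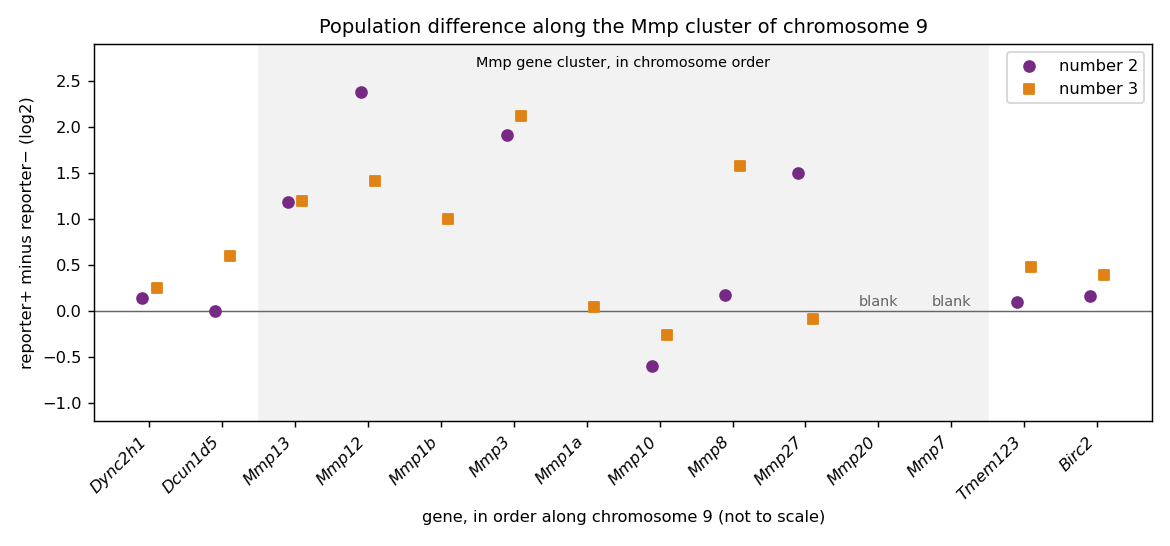
Difference between reporter+ and reporter- cells (log2) at number 2 (circles) and number 3 (squares) for the MMP genes of the chromosome 9 cluster (shaded) and 2 genes on either side, in chromosome order and not to scale; a missing point has a blank in at least 1 of its 2 libraries. *Mmp13*, *Mmp12* and *Mmp3* are above 1 at both numbers, *Mmp10* is below 0 at both, and the genes outside lie between −0.0043 and 0.60.

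Of the 5 MMP inhibitors, none passed the test between populations in either direction. *Timp1* was higher in reporter+ cells without overlap, at 8.24 and 8.10 against 8.06 and 7.71, with a log2 fold change of 0.29 (SE 0.24), beside 7.59% of all genes higher without overlap. *Timp2* was at 8.53 and 7.59 in reporter+ and at 8.86 and 7.88 in reporter- libraries, with differences of −0.33 and −0.28. *Timp3*, whose product binds to the matrix, was at 6.34 and 3.22 in reporter+ and at 6.10 and 4.33 in reporter- libraries. *Timp4* was at −3.30 and −1.43 in reporter+ and at −3.47 and 0.17 in reporter- libraries. *Reck*, a membrane-anchored inhibitor, stayed between 2.76 and 3.07. Between numbers, *Timp2* fell by 0.96 (adjusted p = 0.00269) and *Timp3* by 2.44 (adjusted p = 0.000324), whereas *Timp4* rose by 2.76 (adjusted p = 0.00417), beside 9.79% of all genes that fell and 11.5% that rose.

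Of 12 activators and partners of MMPs, 11 had a value in every library, *Plg* was blank in all, and none passed the adjusted test between populations without a block. *Bsg*, which encodes the MMP inducer basigin, was the only one without overlap, at 7.62 and 7.77 against 7.56 and 7.61, a difference of 0.11 (SE 0.19), and 1 of 11 is near the 7.59% of all genes that were higher without overlap. *Lcn2*, whose product binds gelatinase B, was singled out after its values were seen, at 5.72 and 7.22 in reporter+ and 4.13 and 6.11 in reporter- libraries. Its differences of 1.59 and 1.11 left the populations overlapping, and it passed only with the heading number as a block (adjusted p = 0.0121, limma).

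The 14 regulators of MMP genes, AP-1, ETS, RUNX and NF-κB genes among them, all had values in every library. None of them was without overlap between the populations, beside 7.59% of all genes higher and 8.1% lower, and their median log2 fold change was −0.02. Between numbers 9 of 14 fell, *Fos* by 1.72 (adjusted p = 0.000337) and *Junb* by 1.05 (adjusted p = 0.000497) among them, and 1 rose (*Etv4*), beside 9.79% of all genes that fell and 11.5% that rose.

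The list of cytokines known to induce MMP genes and of their receptors held 13 genes, among them the receptor antagonist gene *Il1rn*. Of these, 11 had a value in every library and *Il1a* and *Il1b* were blank in all. Without overlap, *Osm*, the oncostatin M gene, was higher in reporter+ cells, at −3.89 and −4.37 against −5.31 and −6.35 (log2 fold change 1.71, SE 0.72). *Il17ra* was 0.33 and *Osmr* 0.18 higher, and *Il6ra* was lower, with a log2 fold change of −0.18, likewise without overlap. These are 3 genes higher and 1 lower of 11, beside 7.59% and 8.1% of all genes. None passed the adjusted test. *Il6* went opposite ways, with −0.72 at number 2 and 2.60 at number 3.

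Of 13 genes of MMP substrates, all with values in every library, 9 had a lower mean in reporter+ cells, 8 of them at both numbers (24.8% of all genes), 2 were higher at both (22.1%), and the median log2 fold change was −0.12. *Dcn*, the decorin gene, was higher without overlap, at 7.47 and 8.49 against 6.67 and 6.51 (log2 fold change 1.39, SE 0.39, unadjusted p = 0.0187, adjusted p = 1, limma). *Fn1*, the fibronectin gene, was lower without overlap, at 10.29 and 9.41 against 10.47 and 10.30. Without overlap, 7.59% of all genes were higher and 8.1% lower. *Col1a1* and *Col1a2*, the genes of collagen I, had log2 fold changes of −0.12 and −0.06, with overlap.

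The genes of most like pattern were found for *Mmp3*, *Mmp9* and *Mmp13*, as the smallest distance between the 4 log2 values after centering each gene on its own mean, over the 4 libraries and 10223 other genes. For *Mmp3* they were *Pip* (distance 0.501), *Prss35* (1.22) and *Srgn* (1.45). *Pip* was at −0.49 and 3.15 in reporter+ and at −2.99 and 0.64 in reporter- libraries, and thus carried both the difference between populations and that between numbers. For *Mmp9* they were *Lum* (0.435), *Acp5* (0.529) and *Dcn* (0.613), and *Lum*, the lumican gene, was at 5.96 and 6.04 in reporter+ and at 4.61 and 3.73 in reporter- libraries. *Acp5* is an osteoclast marker, whereas *Lum* and *Dcn* encode matrix proteoglycans of connective tissue cells. For *Mmp13* they were *Lcp1* (0.241), *Col14a1* (0.283) and *Adgre1* (0.339). *Lcp1* is a gene of leukocytes and *Adgre1* is one of the macrophage markers above, whereas *Col14a1* encodes a collagen of connective tissue cells.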

How the data were processed

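The log2 expression values of 4 libraries had been quantile normalized when deposited by the authors, 1 per gene symbol and library, with blanks for genes without signal. Per the submitters' processing notes and the methods, the stranded paired-end libraries of total RNA were read on an Illumina instrument, with bcl2fastq 2.17.1.14, Partek 7.0 and the build GRCm38.p6. The aligner, the counting, the annotation, the filters and the depth are not given in the sources used here.

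In R 4.3.3, limma 3.58.1 (lmFit, then eBayes with a trend, two-sided tests, no block) was run on the 14415 genes that had 4 values, and p-values were adjusted over all of them by Benjamini-Hochberg, with a threshold of 0.05. Number 3 was tested against number 2 with the population as a term. The model was tested on simulated data, and no outcome of that is given or used here. Summaries and plots used Python 3.11.15, pandas 2.3.3 and matplotlib 3.10.9.

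Positions were taken from GENCODE M21 and promoters from RefSeq, by symbol. The members, the gene lists and the tests were chosen with earlier results of these data known. Every member, the other MMP genes with a value and the MMP inhibitors were named. So were the 3 genes of most like pattern for *Mmp3*, *Mmp9* and *Mmp13*. Of the other lists, some genes without overlap and some with overlap were named, by no fixed rule. Not all genes without overlap are named. Alternatives covered scaling, pseudocount, filter, blanks, block, trend, moderation and each library left out.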

Additional observations from a re-analysis of the deposited data

How the results depend on the processing

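The comparison of populations gave 0 genes at an adjusted p under 0.05 under every setting but the replicate block, with the heading number as a term, which called 29 (22 higher and 7 lower in reporter+ cells, 0.201% of genes). *Mmp3* (adjusted p = 0.00341), *Mmp13* (0.0101) and *Lcn2* (0.0121) were among them and *Mmp9* was not (0.058). Libraries of the 2 populations with the same number correlated at 0.681 across genes in their deviations from the population means, but with 2 pairs and no label this does not show that they share a preparation. Added after seeing the data, the block without a trend and the block without moderation called 0 genes. Members with an unadjusted p under 0.05 numbered 1 without a block, 3 with the replicate block and with the block without a trend, and 2 with the block without moderation. Leaving out each library in turn gave 1 to 2, the 2 being without reporter- library 3. The median log2 fold change of the members ranged from 0.0071 (without reporter- library 2) to 0.56 (without reporter+ library 2), beside 0.06 with all libraries. Such a fit leaves 1 library alone in its population, assumed to vary like the others, and unbalances the numbers. Genes called between numbers fell from 3065 of 14415 to 1966 of 10224 when quantile normalized again over genes averaging 0 or more (2232 of 10224 with that filter alone), 1825 with a pseudocount of 1, 819 with blanks set to the lowest value and 0 without a trend. *Mmp3* and *Mmp13* missed the threshold between numbers without the population term, and *Mmp10* with blanks set to the lowest value. With a pseudocount of 1 the number difference of *Mmp9* turned from −0.043 to 0.016. The cause was not tested. Leaving out libraries was not run for the numbers, since no residual degree of freedom remains. Log2 fold changes that turned sign only on leaving out 1 library ranged from −0.69 to 0.81 for *Mmp2*, −1.77 to 0.92 for *Mmp10*, −0.092 to 0.20 for *Mmp11*, −0.16 to 0.12 for *Mmp14*, −0.86 to 0.89 for *Mmp16*, −0.053 to 0.30 for *Mmp19* and −0.57 to 0.26 for *Mmp23*. The ranges were −0.15 to 1.89 for *Mmp8*, −0.85 to 0.62 for *Mmp15*, −1.14 to 0.65 for *Mmp17*, −0.97 to 1.91 for *Mmp24*, −0.83 to 2.25 for *Mmp27* and −0.62 to 0.33 for *Mmp28*. They were −0.80 to 0.18 for *Timp2*, −1.99 to 1.13 for *Timp3*, −2.54 to 1.10 for *Timp4*, −0.12 to 0.19 for *Reck*, −0.25 to 2.41 for *Pcsk5* and −1.68 to 0.025 for *Pcsk6*. *Mmp3* (0.13 to 3.89), *Mmp9* (1.37 to 2.14) and *Mmp13* (0.55 to 1.83) kept their sign. So did *Mmp12* (1.16 to 2.63), *Dcn* (0.88 to 1.90), *Lcn2* (0.36 to 2.34) and *Timp1* (0.11 to 0.47). The same held for *Bsg* (0.032 to 0.19), *Osmr* (0.12 to 0.24) and *Il6ra* (−0.28 to −0.093). Of 520 gene values under an alternative, 470 kept their direction and side of the threshold. Between populations no gene passed under any setting but the replicate block, so that elsewhere only the direction could differ. The count also takes no account of size, which for *Mmp3* ranged from 0.13 to 3.89. Depth is unknown, so that no limit of detection is given.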
